A study of Mus musculus with 47 samples.

Results

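The hippocampus of young male mice was compared between 1 day after the induction of sepsis and the control state, using 8 of the 47 libraries of the series, 4 from septic mice and 4 from controls. The members were the libraries whose labels give young age (3 to 5 months), male sex and either the control state or 24 hours after sepsis. Genes were tested where their mean over the 8 libraries reached 5 CPM, the read count scaled to library size, which left 11720 of the 28032 genes of the table. A gene low in one group could pass this limit through the group in which it was high. The gene just inside this limit, Slfn5, had a mean of 5.0007 CPM and the gene just outside it, Wdr31, a mean of 4.9994 CPM.

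All mice were C57BL/6, bought as a commercial strain and carrying no engineered allele. Septic mice underwent cecal ligation and puncture, in which the cecum is tied off and pierced with a needle so that gut bacteria leak into the abdomen, and they received buprenorphine (an opioid painkiller), imipenem (an antibiotic) and a session of cone restraint shortly before the tissue was taken. The control mice came straight from the home cage and had not been operated on or anesthetized for an operation, so the effects of infection, surgery, the drugs and the restraint cannot be told apart. A single whole hippocampus of each mouse was used, and its polyadenylated RNA was sequenced.

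Sepsis is a dysregulated response of the body to infection, and the brain receives it mainly as circulating signals. Cytokines and bacterial products act on the endothelium of brain vessels, and the adrenal cortex releases glucocorticoids, which bind the glucocorticoid receptor in neurons, astrocytes and endothelial cells and switch on genes such as Fkbp5 and Sgk1. Microglia, the resident macrophages of the brain, and astrocytes change their expression in this state. The hippocampus is rich in glucocorticoid receptors and is known for its role in memory.

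The libraries differed in their content of other cells and tissues, in part along with the groups. The summed level of 12 choroid plexus markers, genes such as Ttr of the tissue that lines the ventricles beside the hippocampus, was 5129 CPM in control 1, 3712 CPM in septic mouse 1 and 5180 CPM in septic mouse 4, and 23.4 to 371 CPM in the other 5 libraries. Markers of fibroblasts and meninges were highest in the same 3 libraries. Hemoglobin and other red blood cell markers summed to 220 to 621 CPM in controls and to 84.4 to 170 CPM in septic mice. Leukocyte markers were low but not equal between the groups. Those of neutrophils summed to 4.83 to 6.9 CPM in controls and to 6.72 to 11.7 CPM in septic mice, those of blood monocytes to 1.63 to 1.79 CPM and to 3.47 to 7.95 CPM with no overlap, and those of lymphocytes to 0.25 to 0.92 CPM and to 0.349 to 1.05 CPM. The neutrophil genes S100a9 and Ngp, under the limit of 5 CPM, were at no more than 0.333 and 0.0416 CPM in controls and at 1.23 to 3.04 and 0.356 to 0.902 CPM in septic mice, and a fit with no limit called both higher (limma, adjusted p = 0.0086 and 0.027). The 10 markers of hippocampal subfields summed to 957 to 1068 CPM in controls and 759 to 977 CPM on day 1, and the 11 neuron markers to 7110 CPM or more in each library. The depth, estimated from the steps between the deposited values, was 19116082 to 28143705 reads in genes, so that 1 read was worth 0.0307 to 0.0416 CPM.

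**Figure D1:**
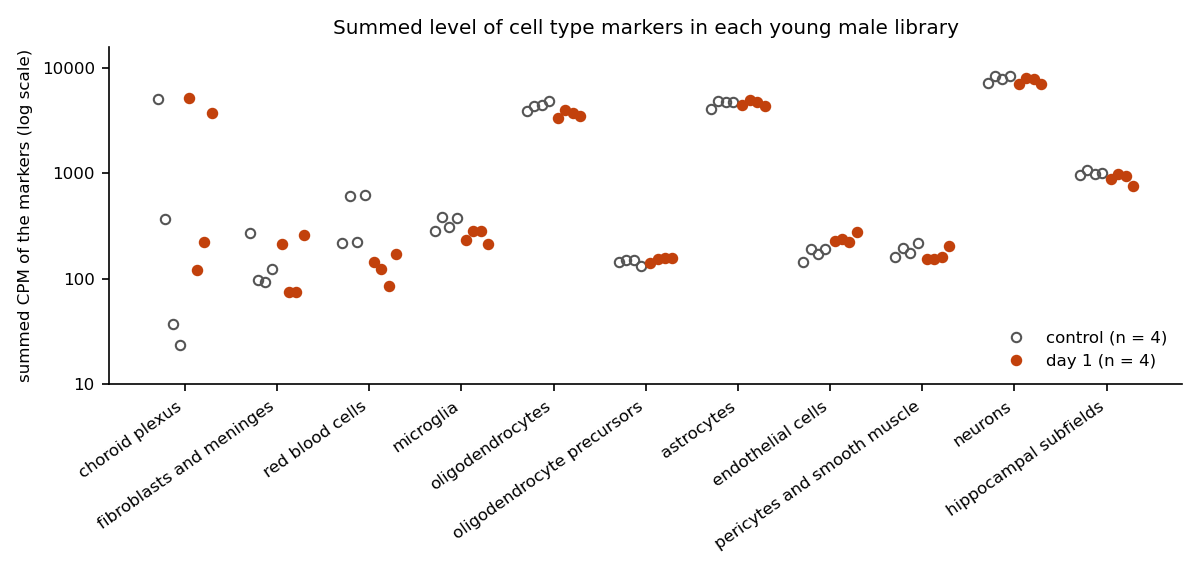
Summed CPM (log axis) of the markers of 11 cell or tissue types in each of the 4 control (open) and 4 day 1 (filled) libraries of young males. Choroid plexus markers span from 23.4 to 5180 CPM, with 1 control and 2 day 1 libraries far above the rest, while red blood cell markers are lower in all 4 day 1 libraries.

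A gene was called where the moderated test of limma on log2(CPM + 1) gave p below 0.01 before adjustment, and the adjusted p (Benjamini-Hochberg, over all 11720 genes) is given beside it. Of the tested genes 933 were called (7.96%), 429 of them higher on day 1 (3.66%) and 504 lower (4.3%). Counts of list members called, given below, stand against these shares. Several lists hold genes that the study had picked on these samples, and their counts are no independent evidence of a direction. At an adjusted p below 0.05 there were 425 genes (3.63%), of which 210 were higher (1.79%) and 215 lower (1.83%). At an unadjusted p below 0.05 there were 2176 (18.6%). The groups did not overlap for 1379 genes (11.8%), 678 with all septic mice above all controls (5.78%) and 701 with all below (5.98%). Over all genes the median log2 fold change was -0.0036 and the median SE was 0.102. Changes of over 2-fold were few, with 45 among the genes called higher and 12 among those called lower. Of the 933 calls, 487 were made again each time any 1 of the 8 libraries was left out, and genes described below as having risen or fallen belong to these unless a loss is stated. Septic mouse 1 had the highest value of its group for 38.9% of the genes called higher, and septic mouse 4 the lowest for 37.5% of the genes called lower. The genes called lower had a median GC content of 55.2%, against 49.9% over all tested genes and 48.0% in those called higher. A correction of each library for GC content left 811 calls among 11600 genes, 429 higher and 382 lower, so the lower calls became fewer. With the 3 libraries high in choroid plexus genes left out, 625 genes were called, and 460 of the 933 calls were among them in the same direction. In that fit only septic mice 2 and 3 stood for the septic group.

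The largest increase was that of Lcn2, which encodes lipocalin 2, a secreted protein that binds the iron carriers of bacteria. It lay between 0.0797 and 0.833 CPM in the 4 controls and at 98.1, 25.7, 24.5 and 23.6 CPM in the septic mice, a log2 fold change of 4.81 ± 0.39 (SE, n = 4 against 4, adjusted p = 0.00012). Every septic mouse stood far above every control, and septic mouse 1 stood far above the other septic mice. Plin4, a coat protein of lipid droplets, rose from 3.21 to 7.21 CPM in controls to 56.0 to 76.8 CPM (log2 fold change 3.53 ± 0.20, adjusted p = 1e-05). Cdkn1a, which encodes the cell cycle inhibitor p21, rose from 5.97 to 8.4 CPM to 34.1 to 54.9 CPM (2.38 ± 0.14, adjusted p = 1.2e-05).

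The other 9 of the 12 largest increases, taken among genes with an adjusted p below 0.05, no overlap between the groups and a mean of at least 10 CPM, had log2 fold changes of 2.01 to 1.54. They were the unnamed gene model Gm19439 on chromosome 3, the sulfotransferase Sult1a1, the surface antigen Ly6a, the arrestin-related Arrdc2, the ceramidase Acer2, Phyhd1, the lipid carrier Apod, the hypoxia-inducible factor subunit Hif3a and the transglutaminase Tgm2. Gm19439 lay at 4.37 to 6.2 CPM in controls and at 22.8 to 25.6 CPM in septic mice. Apod was at 114, 119, 130 and 170 CPM in controls and at 553, 363, 357 and 368 CPM on day 1. For these genes, too, the lowest septic value was above the highest control value by the way they were chosen.

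The largest decreases were led by genes of oligodendrocytes, red blood cells and microglia. Opalin, a membrane protein of myelin-forming oligodendrocytes, fell from 17.1, 19.9, 20.9 and 24.9 CPM in controls to 5.41, 4.88, 4.76 and 5.53 CPM (log2 fold change -1.81 ± 0.12, adjusted p = 1.7e-05). P2ry12, the receptor with which resting microglia sense ATP and ADP, fell from 16.5, 22.0, 18.8 and 23.2 CPM to 3.76, 6.6, 6.64 and 4.51 CPM (-1.75 ± 0.17, adjusted p = 0.00029). All septic values of both genes lay far below the controls. Hbb-bt, Hba-a2 and Hba-a1, which encode hemoglobin chains, had log2 fold changes of -1.75, -1.62 and -1.42. These 3 genes share much of their sequence with near-identical copies, and their control values fell into a low pair (mice 1 and 3) and a high pair (mice 2 and 4). None of the 4 tested red blood cell genes was called when all 12 groups of the series were fitted together. Others among the 12 were Ugt8a (-1.25), Itm2a (-1.08), Myoc (-1.06), the peptide gene Apln (-1.05), the peptidylarginine deiminase Padi2 (-1.02) and Pllp (-0.99).

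**Figure D2:**
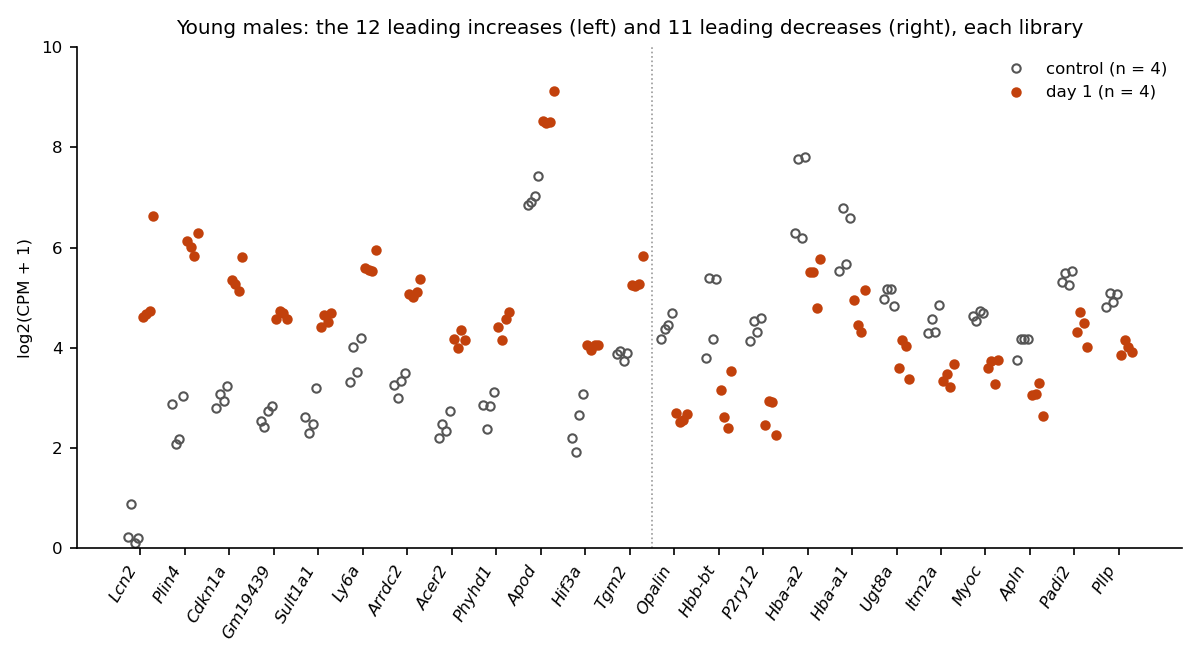
Level of 23 leading genes, as log2(CPM + 1), in each control (open, n = 4) and day 1 (filled, n = 4) library of young males, with the 12 largest increases left of the dotted line and 11 of the largest decreases right of it. Lcn2 rose from at most 0.833 CPM to at least 23.6 CPM, and the control values of the hemoglobin genes lie in a low and a high pair.

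Glucocorticoid-responsive genes rose as a group. All 18 genes of a list of genes that glucocorticoids raise in the brain were called higher, all 18 also at an adjusted p below 0.05, with a median log2 fold change of 0.88 against -0.0036 over all genes. The list was chosen by the study on these samples, so this count is no independent evidence of its direction. Sgk1, a kinase that regulates ion transport, was at 55.1, 38.5, 52.9 and 62.3 CPM in controls and at 179, 144, 130 and 150 CPM in septic mice (1.52 ± 0.14, adjusted p = 0.00021). Fkbp5, the co-chaperone that damps the glucocorticoid receptor, was at 51.8 to 69.0 CPM in controls and at 106 to 118 CPM on day 1 (0.91 ± 0.09, adjusted p = 0.00029). The groups did not overlap for any of the 18 genes. Tsc22d3, which encodes the anti-inflammatory leucine zipper protein GILZ, rose by 0.91 ± 0.12, the transcription factors Klf15 and Klf9 by 0.90 ± 0.11 and 0.35 ± 0.08, and Ddit4, an inhibitor of mTOR, by 0.85 ± 0.12 on the log2 scale. The smallest change of the list was that of Arhgef3 (0.31 ± 0.07). Without the 3 libraries high in choroid plexus genes, 16 of the 18 were called, and Arhgef3 and Klf9 were not.

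The stretch of 250 bases before the RefSeq start of each gene, together with 50 bases after it, was searched on both strands for the palindromic binding motif of the glucocorticoid receptor, in which GNACA and TGTNC are separated by any 3 bases (N is any base). It was present in 0.366% of the 8752 tested genes with such a window, in 8 of 339 genes called higher (2.36%) and in none of 360 called lower. Of the 18 listed genes only Sgk1 held it. The others called higher were Map3k6, Serpina3n, Txnip and Fam107a, together with Mt1, Amy1 and Ptpdc1, whose calls were not made in every set with 1 library left out. Below are the 250 bases before the start of Sgk1 (chr10:21993640-21993889, plus strand) and, chosen after their values were seen, of the 3 with the largest changes beside it, Map3k6 (chr4:133240568-133240817, plus strand), Serpina3n (chr12:104406458-104406707, plus strand) and Txnip (chr3:96557707-96557956, plus strand), all in GRCm38.p6 (RefSeq), 5′ to 3′, with the motif in capitals. They show how close to the start the motif lies, with its first base 188, 181, 78 and 172 bases before it. A match is a description of the letters and not of binding.
Sgk1: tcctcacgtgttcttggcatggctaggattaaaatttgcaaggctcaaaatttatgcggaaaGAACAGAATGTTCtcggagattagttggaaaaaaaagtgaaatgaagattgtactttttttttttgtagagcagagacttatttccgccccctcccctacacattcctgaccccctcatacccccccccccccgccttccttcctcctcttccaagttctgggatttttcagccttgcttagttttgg
Map3k6: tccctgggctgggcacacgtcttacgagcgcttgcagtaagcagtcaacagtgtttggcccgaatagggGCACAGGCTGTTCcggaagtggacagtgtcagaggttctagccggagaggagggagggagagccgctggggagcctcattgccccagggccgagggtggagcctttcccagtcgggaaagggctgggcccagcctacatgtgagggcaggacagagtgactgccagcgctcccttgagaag
Serpina3n: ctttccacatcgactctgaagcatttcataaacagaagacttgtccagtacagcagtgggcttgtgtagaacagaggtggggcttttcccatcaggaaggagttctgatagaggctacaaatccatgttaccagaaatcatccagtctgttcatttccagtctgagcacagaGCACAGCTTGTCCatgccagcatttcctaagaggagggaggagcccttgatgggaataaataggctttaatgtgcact
Txnip: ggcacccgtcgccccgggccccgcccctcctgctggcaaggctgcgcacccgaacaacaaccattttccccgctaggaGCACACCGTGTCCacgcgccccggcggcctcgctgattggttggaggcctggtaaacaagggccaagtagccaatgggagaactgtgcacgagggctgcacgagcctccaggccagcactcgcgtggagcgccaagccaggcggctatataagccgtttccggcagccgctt

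The 4 genes differed in size of change. Map3k6, a stress-activated kinase, rose from 2.11 to 3.44 CPM in controls to 7.2 to 14.9 CPM (1.67 ± 0.20), Serpina3n, a secreted protease inhibitor of reactive astrocytes, from 34.9 to 47.3 CPM to 70.2 to 115 CPM (0.96 ± 0.15), and Txnip, which restrains glucose uptake, from 15.3 to 18.5 CPM to 26.1 to 39.3 CPM (0.90 ± 0.13). Septic mouse 1 was the highest for each of them. Txnip shares 19.4% of its exon bases with a gene on the opposite strand.

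Clock genes and immediate early genes moved little by comparison. Of 19 clock genes none was called higher and 1, Rorb (-0.33), was called lower, and that call was made again in 1 of the 8 sets with a library left out. Per1, which glucocorticoids also induce, differed by -0.02 and Per2 by 0.09. Of 23 immediate early genes, which neurons transcribe within minutes of activity, 3 were called higher, of which Ier3 (0.96 ± 0.16) was called in each set with a library left out and Fosb and Klf2 in 5 of the 8 sets. Fos lay at 4.29, 9.24, 16.1 and 11.2 CPM in controls and at 5.83, 4.38, 8.36 and 6.4 CPM in septic mice, so the groups overlapped, and its log2 fold change of -0.54 ± 0.30 did not pass the test (limma, adjusted p = 0.378). Arc (-0.44), Npas4 (-0.43), Egr1 (-0.46) and Nr4a1 (-0.37) also had values below 0 that did not pass.

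**Figure D3:**
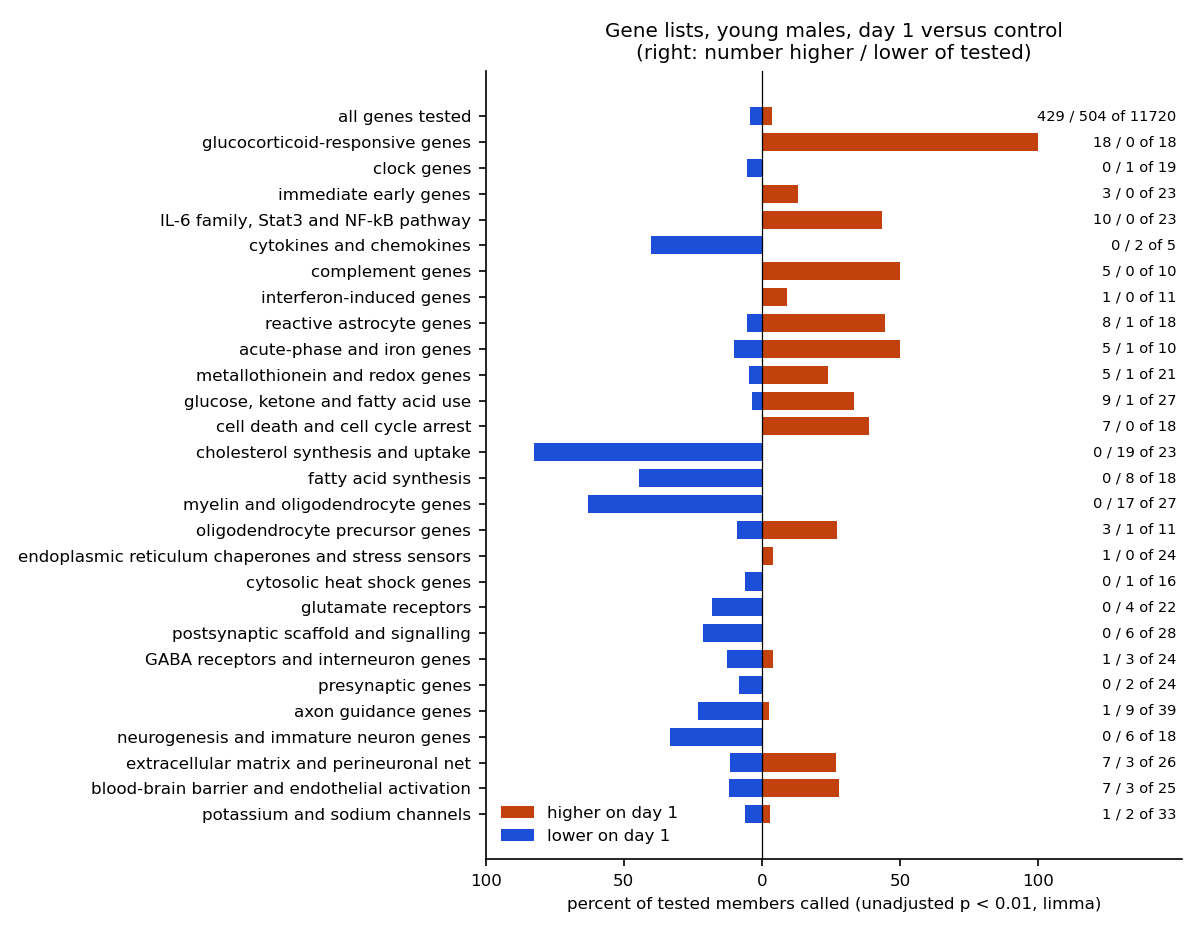
Percent of the tested members of 27 gene lists called higher (right) or lower (left) on day 1 in young males, with the counts at the right margin and all 11720 tested genes in the top row. The glucocorticoid-responsive genes lie wholly on the right and the cholesterol, fatty acid and myelin lists wholly on the left.

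Some acute-phase genes, which the liver and inflamed tissues make during infection, were higher. Of 10 tested acute-phase and iron genes 5 were called higher and 1 lower (median log2 fold change 0.28). Lcn2 and Saa3 passed the limit of 5 CPM only through the septic mice, and with the limit set on the mean over all 47 libraries 9 genes of the list were tested and 4 called higher (median 0.049). Saa3, an inflammatory serum amyloid, was at no more than 0.0818 CPM in controls and at 43.5, 3.14, 2.46 and 3.76 CPM in septic mice, so that every septic mouse was above the controls while most of the mean came from septic mouse 1 (2.82 ± 0.65, adjusted p = 0.0385). Its call was not made with a pseudocount of 5 or with an unmoderated F test. Cp, the copper-carrying ferroxidase ceruloplasmin, rose from 5.95 to 10.6 CPM to 16.6 to 37.4 CPM (1.31 ± 0.25). Trf, which encodes the iron carrier transferrin and is made in the brain by oligodendrocytes and choroid plexus, fell by 0.53 ± 0.12 on the log2 scale.

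Of 25 genes of the blood-brain barrier and endothelial activation 7 were called higher and 3 lower, and 15 were not called (median log2 fold change 0.10). Icam1, the adhesion molecule to which leukocytes bind, was at 2.86, 2.79, 1.59 and 1.56 CPM in controls and at 24.1, 9.54, 6.07 and 8.46 CPM on day 1 (1.88 ± 0.33, adjusted p = 0.0099). It passed the limit of 5 CPM only through the septic mice. Vwf, the platelet-binding von Willebrand factor, was at 15.5 to 26.98 CPM in controls and at 53.0 to 69.0 CPM on day 1 (1.53 ± 0.15, adjusted p = 0.00026). The groups did not overlap. The endothelial nitric oxide synthase Nos3 (0.96), the junction proteins Pecam1 (0.84) and Esam (0.58) and the lipid transporter Mfsd2a (0.76) rose, and the endothelin receptor Ednrb (-0.80), the caveolar protein Cav1 (-0.75) and the VEGF receptor Kdr (-0.61) fell. The tight junction genes Cldn5 (0.06), Ocln (0.22) and Tjp1 (0.05) did not pass the test. Selp and Sele, the endothelial selectins that slow rolling leukocytes, were under the limit of 5 CPM. Selp was at 0, 0.0416, 0 and 0 CPM in controls and at 6.88, 5.58, 1.56 and 3.08 CPM in septic mice, and Sele at no more than 0.208 CPM against 3.2, 3.61, 1.48 and 1.23 CPM. The summed level of 7 endothelial markers was 144 to 193 CPM in controls and 225 to 277 CPM on day 1. In whole tissue, more cells of a type and more RNA per cell cannot be told apart.

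In the list of IL-6 family, Stat3 and NF-kB signaling 10 of 23 tested genes were called higher and none lower. Il4ra, Osmr, Stat3, Il6ra and Nfkbia had also been picked by the study on these samples, so the count is no independent evidence of its direction. Receptors led it. Il4ra was at 3.99 to 5.2 CPM in controls and at 12.6 to 16.8 CPM on day 1 (1.46 ± 0.13), and Osmr, the oncostatin M receptor, at 3.9 to 5.26 CPM and 11.4 to 15.1 CPM (1.44 ± 0.13). Tnfrsf1a (0.72) and Il1r1 (0.68), receptors for TNF and IL-1, rose as well. Among the signal carriers Stat3 rose by 0.44 ± 0.07, Jak3 by 0.63 ± 0.13 and the kinase Pim3 by 0.50 ± 0.09 on the log2 scale, while Il6st, the shared signaling chain of the family, differed by 0.04. Socs3, the Stat3 target that ends the signal, was under the limit and lay at 1.35 to 1.51 CPM in controls and at 7.14, 7.55, 3.57 and 5.89 CPM on day 1. Il6ra and Jak2, also called higher, were called in 3 of the 8 sets with a library left out.

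Nfkbia, which encodes the inhibitor that holds NF-kB in the cytoplasm and is induced by NF-kB and by glucocorticoids, rose from 12.8, 12.99, 12.9 and 18.1 CPM to 35.8, 22.7, 27.4 and 25.7 CPM (0.92 ± 0.15, adjusted p = 0.0057). Its promoter was the only one of the 19 members with a window that held the NF-kB motif, GGGA and TTCC with any 2 bases between them, on either strand, which 1.63% of all 8752 genes held. The 250 bases before its start (chr12:55492648-55492897, minus strand, GRCm38.p6, RefSeq, 5′ to 3′) are given with the match in capitals, 29 bases before the start. No other kappa B motif of the list was looked for.
Nfkbia: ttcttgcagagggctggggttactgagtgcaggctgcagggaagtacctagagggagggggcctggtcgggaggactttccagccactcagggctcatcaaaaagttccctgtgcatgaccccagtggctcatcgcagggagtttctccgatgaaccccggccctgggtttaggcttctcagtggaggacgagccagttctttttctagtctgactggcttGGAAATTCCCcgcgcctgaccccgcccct

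The ligands themselves were low. Of 26 cytokines and chemokines 23 were in the table, and 5 passed the limit of 5 CPM. Of these Il33, an alarmin held in the nuclei of glia, fell from 26.2, 29.5, 30.9 and 31.6 CPM to 13.1, 19.1, 18.8 and 14.7 CPM (-0.82 ± 0.12, adjusted p = 0.0036), and Cxcl12, a chemokine of vessels and neurons, fell by 0.61 ± 0.11 on the log2 scale. Tnf was listed at 0 in all 4 controls and at 0.301, 0.19, 0.164 and 0.237 CPM on day 1. Il6 was at no more than 0.0416 CPM in controls and, among the septic mice, above 0 only in mouse 1, at 0.113 CPM. Il1b was at 0.0818 to 0.291 CPM in controls and at 0.158 to 0.94 CPM on day 1, so the groups overlapped. The chemokine Ccl12 was at no more than 0.208 CPM in controls and at 1.65, 2.06, 1.15 and 0.83 CPM on day 1, and Ccl2, which attracts monocytes, at no more than 0.125 CPM and at 0.287 to 0.789 CPM. In a fit with no limit limma called Ccl12, Tnf and Ccl2 higher (adjusted p = 0.0079, 0.0086 and 0.022) and neither Il6 nor Il1b.

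Complement genes, whose products tag microbes and synapses for removal, were higher in 5 of 10 tested members and lower in none, with a median log2 fold change of 0.60. C4b rose from 44.4, 44.0, 42.9 and 55.9 CPM to 116, 85.5, 84.5 and 79.7 CPM (0.94 ± 0.12, adjusted p = 0.0016). The microglial C1qa (0.63 ± 0.14) and C1qb (0.58 ± 0.13) rose, and C1qc (0.19) did not pass the test. The groups did not overlap for the 5 called genes. Reads of C4b can come from its near copy C4a, with which it shares 34.6% of its 50-base stretches. C3 was under the limit, at 1.71 to 2.79 CPM in controls and 4.35 to 10.1 CPM on day 1.

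Interferon-induced genes moved little, with 1 of 11 tested members called (9.09%, near the 7.96% of all tested genes). It was Ifitm3, which blocks virus entry, at 4.42 to 7.03 CPM in controls and at 24.2, 8.52, 11.498 and 11.3 CPM on day 1 (1.09 ± 0.26, adjusted p = 0.041). Irf1 (0.32), the class I antigen genes H2-K1 (0.35) and H2-D1 (0.44) and B2m (0.13) did not pass the test, though all 11 log2 fold changes were above 0.

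Of 18 tested genes of reactive astrocytes 8 were called higher and 1 lower. Besides Lcn2, Osmr, Cp, Serpina3n and Fkbp5, they included the matrix protein Fbln5 (1.40 ± 0.21). Vim was also called higher, though not without control 3 or septic mouse 4, and Srgn, though not without control 2 or control 3. Gfap, the intermediate filament by which reactive astrocytes are usually recognized, was at 294, 370, 356 and 399 CPM in controls and at 493, 380, 401 and 367 CPM on day 1. Septic mice 1 and 3 were above all controls and the other 2 were not, and the difference of 0.21 ± 0.12 did not pass the test (limma, adjusted p = 0.372). Of 14 astrocyte markers 1 was called higher, the gap junction gene Gjb6 (0.81 ± 0.11), and 1 lower, the water channel Aqp4 (-0.49 ± 0.12). The potassium channel Kcnj10, another astrocyte gene, fell by 0.52 ± 0.10 on the log2 scale.

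Of 13 tested microglia markers 6 were called lower and none higher, with a median log2 fold change of -0.35. Beside P2ry12, Siglech fell from 6.3 to 11.2 CPM to 2.52 to 5.37 CPM (-0.92 ± 0.20, adjusted p = 0.03), Trem2 by 0.52 ± 0.13 and the transcription factor Sall1 by 0.35 ± 0.08 on the log2 scale. P2ry13 and Olfml3, also called lower, were called in 2 and 3 of the 8 sets with a library left out. Tmem119 (-0.22), Cx3cr1 (-0.27) and Csf1r (-0.35) did not pass the test, and Tmem119 overlapped between the groups. Of 7 tested genes of microglia and macrophage activation 2 were called higher and 1 lower, and 3 of the 7 log2 fold changes were below 0. Fcgr3, the Fc receptor of activated microglia and macrophages, rose from 6.84, 9.82, 7.76 and 11.7 CPM to 21.1, 23.9, 24.7 and 18.98 CPM (1.23 ± 0.15, adjusted p = 0.0011), and Spp1, which encodes osteopontin, rose by 1.35 ± 0.32, with overlap between the groups. Lpl, a lipoprotein lipase, was called lower (-0.39 ± 0.12), and in 3 of the 8 sets with a library left out. Itgb2, the beta chain of the complement receptor 3 integrin, rose by 0.85 ± 0.15 on the log2 scale. The summed blood monocyte markers, given above, were higher in septic mice too, and their part in these increases was not tested. Without the 3 libraries high in choroid plexus genes, P2ry12 and Siglech were still called, and the other 4 microglia markers and Spp1 were not.

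Many genes of lipid synthesis had lower RNA levels. Cholesterol is made in the brain itself, mainly by glia, by an enzyme chain that SREBP2 (Srebf2) switches on when sterols are scarce. Of 23 genes of cholesterol synthesis and uptake 19 were called lower and none higher, 13 at an adjusted p below 0.05, and all 23 log2 fold changes were below 0 (median -0.48). Several of these genes, among them Hmgcs1, Idi1, Fdps, Msmo1, Dhcr7 and Nsdhl, had also been picked by the study on these samples, so the count is no independent evidence of its direction. With each library left out in turn 14 to 17 genes were called lower, and 15 without the 3 libraries high in choroid plexus genes. At the top of the chain Hmgcs1 fell from 116, 126, 124 and 120 CPM to 78.0, 81.7, 92.6 and 76.6 CPM (-0.56 ± 0.08, adjusted p = 0.002). In the middle, Mvd fell by 0.74 ± 0.09, Idi1 by 0.68 ± 0.12, Fdps by 0.47 ± 0.09, Fdft1 by 0.46 ± 0.09 and Sqle by 0.55 ± 0.08 on the log2 scale. Near the end, Cyp51 fell by 0.48 ± 0.09, Msmo1 by 0.65 ± 0.13 and Dhcr7 by 0.51 ± 0.09 on the log2 scale. The regulators Srebf2 (-0.56) and Insig1 (-0.49) fell too. Of the 19 genes called lower 13 were called in each set with a library left out, and Mvk, Lss, Tm7sf2, Sc5d, Nsdhl and Scap were not.

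The sterol regulatory element, TCAC and CCAC with any base between them, searched on both strands, was found in 1.45% of the windows of all genes and in 1 of the 17 list members with a window, Hmgcs1. The 250 bases before its start (chr13:119690101-119690350, plus strand, GRCm38.p6, RefSeq) hold it 137 bases before the start, in capitals. Among genes called lower 2.22% held it and among genes called higher 2.95%.
Hmgcs1: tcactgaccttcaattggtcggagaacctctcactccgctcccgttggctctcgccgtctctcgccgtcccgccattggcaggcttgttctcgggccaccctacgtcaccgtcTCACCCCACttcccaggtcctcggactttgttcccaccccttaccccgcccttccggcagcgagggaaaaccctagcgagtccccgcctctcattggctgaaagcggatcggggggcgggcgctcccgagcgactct

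Of 18 genes of fatty acid synthesis 8 were called lower and none higher. The desaturase Fads2 fell from 86.8, 105, 94.4 and 91.3 CPM to 61.0, 61.4, 48.1 and 55.7 CPM (-0.73 ± 0.09, adjusted p = 0.0015). Fa2h, which adds the hydroxyl group of myelin lipids, fell by 0.66 ± 0.10, Scd1 by 0.52 ± 0.08, Scd2 by 0.48 ± 0.09, fatty acid synthase Fasn by 0.49 ± 0.08 and Fads1 by 0.38 ± 0.07 on the log2 scale. Srebf1 (-0.23), which drives many of these genes, and Acaca (0.03) did not pass the test.

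Myelin genes were lower. Of 27 genes of myelin and oligodendrocytes 17 were called lower and none higher, 15 at an adjusted p below 0.05 (median -0.40). Mag, Ugt8a, Fa2h, Pllp, Lpar1, Gal3st1, Cnp and Plxnb3 were among genes that the study had also picked on these samples, so the count is no independent evidence of its direction. Ugt8a, the enzyme that makes galactosylceramide, fell from 27.6 to 35.2 CPM to 9.44 to 16.8 CPM (-1.25 ± 0.16, adjusted p = 0.0016). The groups did not overlap. Mog (-0.66), Mag (-0.62), Cnp (-0.62), Gjb1 (-0.89), Lpar1 (-0.90) and Plxnb3 (-0.73) also fell. Mbp, a main myelin protein, was at 1803 to 2188 CPM in controls and 1629 to 1934 CPM on day 1 and did not pass the test (-0.17 ± 0.10), nor did Mobp (0.24 ± 0.11). The lineage regulators Olig1 (-0.20), Olig2 (-0.16) and Myrf (-0.17) did not pass it either, and Sox10 (-0.40) and Tspan2 (-0.32) were called in 4 and 2 of the 8 sets with a library left out. Of 11 oligodendrocyte precursor genes Neu4 rose (0.51 ± 0.11) and Cspg5 fell (-0.41 ± 0.09), and Pdgfra (0.29) and Vcan (0.31), also called higher, were called in 1 and 3 of the 8 sets.

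**Figure D4:**
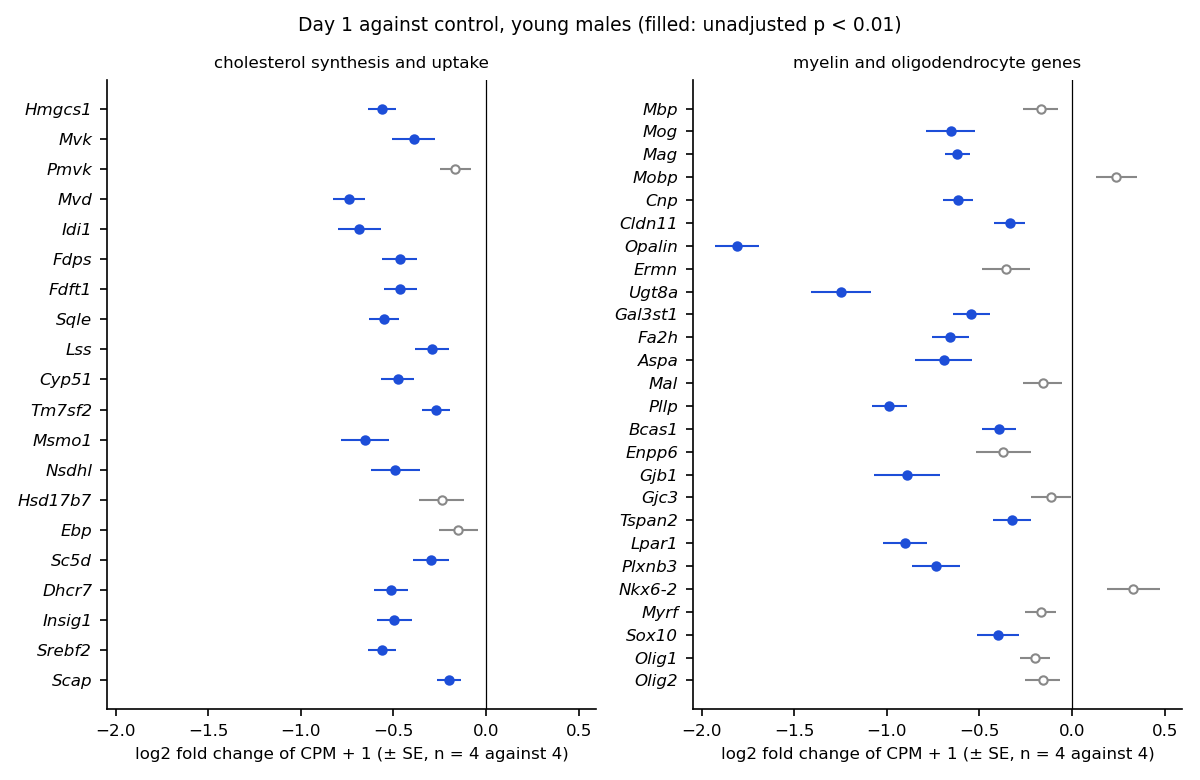
Log2 fold change of CPM + 1 on day 1 against control, with its SE (4 against 4 libraries), for 20 genes of cholesterol synthesis and uptake in pathway order (left) and 26 genes of myelin and oligodendrocytes (right). Filled points passed an unadjusted p below 0.01. All 20 points on the left lie below 0, and on the right Mobp and Nkx6-2 lie above 0 and did not pass the test.

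Of 27 tested genes of glucose, ketone and fatty acid use 9 were called higher and 1 lower. With the limit set on the mean over all 47 libraries 26 were tested and 9 called higher. Txnip, Pdk4, Slc2a1, Irs2 and Ucp2 had also been picked by the study on these samples, so the count is no independent evidence of its direction. Besides Plin4 and Txnip, Angptl4, a secreted inhibitor of lipoprotein lipase, rose from 1.02, 1.71, 2.79 and 3.68 CPM to 10.5, 5.8, 6.44 and 8.66 CPM (1.46 ± 0.26). Angptl4 passed the limit of 5 CPM only through the septic mice. Pdk4, which closes the entry of pyruvate into the citric acid cycle, rose by 1.23 ± 0.13 and Slc2a1, the glucose transporter of brain endothelium, by 0.77 ± 0.08 on the log2 scale. Pnpla2, a triglyceride lipase named after its value was seen, rose by 1.26 ± 0.14. Ucp2 (1.13) and Irs2 (0.26), called higher, and Hk1 (-0.25), called lower, were each called in 3 of the 8 sets with a library left out.

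Of 18 genes of cell death and cell cycle arrest 7 were called higher and none lower, led by Cdkn1a. Cdkn1a and Sesn1 had also been picked by the study on these samples, so the count is no independent evidence of its direction. Of the 7, 4 were called in each set with a library left out. Without the 3 libraries high in choroid plexus genes 4 of the 18 were called higher. Trp53inp1 (0.54) and Sesn1 (0.40) rose, while Bax (-0.11) and Bcl2 (-0.0044) did not pass the test. Of 21 metallothionein and redox genes 5 were called higher and 1 lower. Xdh (0.87) and Ncf1 (0.84), which encode a xanthine oxidoreductase and a subunit of the NADPH oxidase, rose, and the neuronal nitric oxide synthase Nos1 fell by 0.47 ± 0.11 on the log2 scale. Gpx3 was at 1.75 to 5.95 CPM in controls and at 73.6, 6.75, 6.6 and 50.8 CPM in septic mice, with septic mice 1 and 4, the mice high in choroid plexus genes, far above the other 2 (2.24 ± 0.69). Its call was lost without control 1, control 3, septic mouse 1 or septic mouse 4. Without the 3 libraries high in those genes it differed by 0.62 and was not called.

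Protein folding genes hardly moved in the full set. Of 24 endoplasmic reticulum chaperones and stress sensors 1 was called, Dnajc3, which rose from 37.0 to 48.7 CPM to 53.2 to 58.1 CPM (0.43 ± 0.09, adjusted p = 0.025). Hspa5, the main chaperone BiP, was at 271, 245, 207 and 175 CPM in controls and at 215, 350, 291 and 250 CPM on day 1, so the groups overlapped (0.30 ± 0.16, adjusted p = 0.363). Without the 3 libraries high in choroid plexus genes 8 of the 24 were called higher (median 0.28), among them Hspa5 (0.62), Pdia4 (0.67), Sdf2l1 (1.04), Manf (0.60) and Hsp90b1 (0.55). That fit rests on septic mice 2 and 3 and called 304 of all 11720 genes higher. A fit to all 8 libraries with the summed choroid plexus level as a covariate called 2 of the 24 (median 0.14). Of 16 cytosolic heat shock genes 1 was called, Cryab, a small heat shock protein of oligodendrocytes and astrocytes, which fell by 0.68 ± 0.11 on the log2 scale.

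Of 28 postsynaptic scaffold and signaling genes 6 were called lower and none higher (median -0.15). Shank1 fell from 642, 669, 456 and 530 CPM to 371, 426, 402 and 346 CPM (-0.56 ± 0.12, adjusted p = 0.031) and Lrp4 by 0.46 ± 0.11 on the log2 scale. The other 4, Dlgap3, Shank3, Nlgn2 and Cacng2, were not called in every set with a library left out. The count ranged from 2 to 7 over the sets with a library left out and was 0 without the 3 libraries high in choroid plexus genes. Of 22 glutamate receptor genes 4 were called lower, of which Grin3a (-0.39 ± 0.09) and Grik5 (-0.40 ± 0.08) were called in each set with a library left out, and Grin2b (-0.35) and Grin2d (-0.35) in 4 and 1 of the 8 sets. Grin1 (-0.06), Grin2a (0.0028) and Gria1 (-0.04) did not pass the test. Of 24 presynaptic genes 2 were called lower, Stx1a, a membrane fusion protein (-0.33 ± 0.08), in each set with a library left out and Nrxn2 in 1 of the 8 sets. The share called in this list was 8.33%, near the 7.96% of all tested genes called in either direction. Of 24 genes of GABA receptors and interneurons 1 was called higher and 3 lower, and none of these was called in every set with a library left out or had an adjusted p below 0.05.

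Of 39 axon guidance genes 9 were called lower and 1 higher. Unc5b, a netrin receptor, fell from 37.5, 39.5, 42.1 and 34.0 CPM to 19.4, 27.5, 19.4 and 21.3 CPM (-0.79 ± 0.11, adjusted p = 0.0032), and the ephrin receptor Ephb1 from 32.0 to 42.7 CPM to 19.8 to 26.0 CPM (-0.68 ± 0.11). Sema4a (-0.43), Ntng2 (-0.44) and Plxnb1 (-0.32) fell, and Epha10 rose (0.51 ± 0.09). Of 18 genes of neurogenesis and immature neurons 6 were called lower. Tubb3, the neuronal beta tubulin, fell from 217, 275, 272 and 259 CPM to 153, 167, 162 and 165 CPM (-0.65 ± 0.08, adjusted p = 0.0016), and Gap43 by 0.45 ± 0.10 on the log2 scale. Dcx, which marks newborn neurons, differed by 0.02 ± 0.12 and Neurod1 by 0.18 ± 0.11, and neither passed the test. Among 11 general neuron markers Rbfox3 fell (-0.40 ± 0.08).

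Of 26 matrix genes 7 were called higher and 3 lower. Adamts1, a protease that cleaves lecticans, rose from 13.4 to 18.2 CPM to 30.3 to 48.3 CPM (1.13 ± 0.14), Hapln2, a link protein of nodes of Ranvier, from 8.69 to 14.0 CPM to 17.6 to 20.8 CPM (0.84 ± 0.13), and Timp4 (0.79 ± 0.16) and Col4a1 (0.65 ± 0.12) also rose. The lectican Ncan (-0.47 ± 0.08) and Ptn (-0.45 ± 0.09) fell. Of 33 potassium and sodium channels 1 was called higher and 2 lower, and Kcnj10, described above, was the only one called in each set with a library left out. The share of channels called was 9.09%, near the 7.96% of all tested genes.

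The same comparison was made in young females and in old males (18 to 22 months), each with 4 libraries a group, and the difference between the effects was tested as an interaction. Only the 11720 genes that reached the limit in young males were tested. In young females 551 of them were called (4.7%), 275 higher (2.35%) and 276 lower (2.35%). In old males 994 were called (8.48%), 442 higher (3.77%) and 552 lower (4.71%). The median SE was 0.126 in young females, 0.0827 in old males and 0.102 in young males. These counts therefore do not rank the size of the responses. In the same order, the median log2 fold change was 0.84, 0.94 and 0.88 for the 18 glucocorticoid-responsive genes. For the cholesterol genes it was -0.48, -0.37 and -0.48, and for the complement genes 0.39, 0.39 and 0.60. Of the 12 largest increases of young males all 12 were called higher in young females and all 12 in old males, and of the 12 largest decreases 11 were called lower in each. The interaction with sex was called at p below 0.01 for 59 genes (0.503%) and that with age for 64 (0.546%). At an adjusted p below 0.05 limma called none for either. At an unadjusted p below 0.05 there were 510 (4.35%) and 410 (3.5%) genes. All 4 shares were below those that the thresholds of 0.01 and 0.05 give where no gene differs. That did not hold with every library left out. Without young female control 2 the interaction with sex was called for 265 genes at 0.01 and 1182 at 0.05. Without young male control 3 that with age was called for 142 and 798. These counts are above what the thresholds give, while the lowest with 1 library left out were 28 and 39 at 0.01. No such set had a gene at an adjusted p below 0.05 (limma).

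By age, the largest positive contrast was Lcn2, which rose by 4.81 in young males and by 2.90 in old males on the log2 scale (difference 1.91 ± 0.57, limma adjusted p = 1). Next came C4b (0.94 against 0.03, difference 0.91 ± 0.18, adjusted p = 0.58), whose controls were at 161 to 180 CPM in old males and at 42.9 to 55.9 CPM in young males, Tgm2 (1.54 against 0.73), the leukocyte actin-bundling gene Lcp1 (0.81 against 0.01) and Pecam1 (0.84 against 0.26). The largest negative contrast was P2ry12, which fell by 1.75 in young males and by 0.95 in old males (difference -0.80 ± 0.21, limma adjusted p = 1), followed by Kirrel2, Egr1, Pcdhgb1 and Foxo6. By sex, Dbp, a clock output gene, had -0.47 in young males and 0.31 in young females (difference -0.78 ± 0.23, adjusted p = 0.994), and Sh3bp1, Plxdc1, Mthfd1l and Kirrel2 followed. On the other side stood Gm8355, Dcn, the chaperones Hsp90b1 (0.24 against -0.43) and Pdia6 (0.16 against -0.51), and Gabra2. The summed choroid plexus markers ranged from 22.96 to 3472 CPM over the young female libraries and from 23.2 to 3272 CPM over the old male libraries.

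The young male libraries of day 4 were compared with the same 4 controls, so the values stand side by side only. Replicate 3 of that group had 277.6 CPM of Xist and 0.0333 CPM of 4 Y-linked genes in sum, against at most 0.158 CPM and at least 54.9 CPM in the 8 libraries compared here, which goes against its label, and the values are given without it. Lcn2 was higher than in controls by 4.81 on day 1 and by 3.62 on day 4, Plin4 by 3.53 and 2.68, Cdkn1a by 2.38 and 1.41, and Apod by 1.61 and 0.02 on the log2 scale. Opalin differed from controls by -1.81 and -0.46, P2ry12 by -1.75 and -0.82, Pllp by -0.99 and -0.16, and Hba-a2 by -1.62 and -1.70. The median over the 18 glucocorticoid-responsive genes was 0.88 on day 1 and 0.59 on day 4, over the cholesterol genes -0.48 and -0.14, over the myelin genes -0.40 and -0.18, and over the complement genes 0.60 and 0.11.

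**Figure D5:**
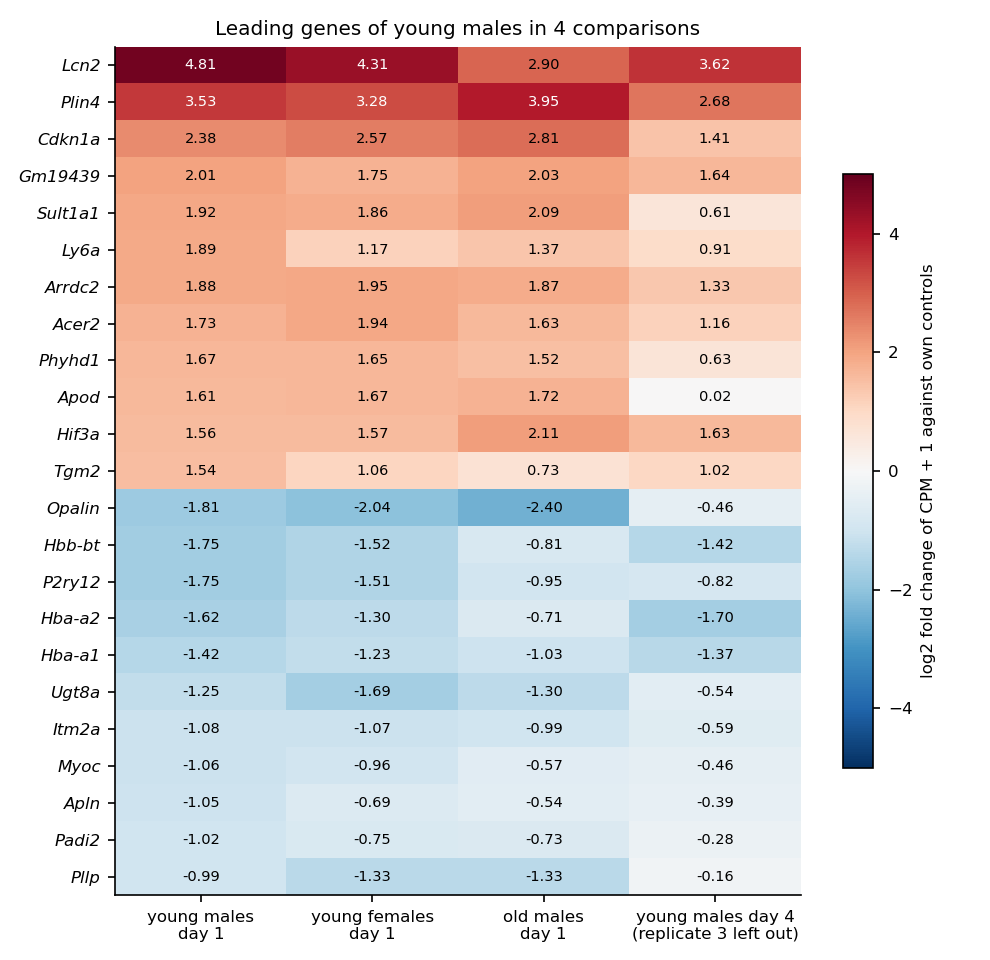
Log2 fold change of CPM + 1 against their own controls for 23 leading genes of young males, in young males, young females and old males on day 1 (4 against 4 libraries) and in young males on day 4 without replicate 3 (3 against 4, with the controls of the first column). All 12 upper genes are above 0 in each column, and Lcn2 is at 2.90 in old males against 4.81 in young males.

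Some levels are uncertain because reads can be shared. Ly6a, Ly6c1, the hemoglobin genes, C4b, Tubb2b, Idi1, Acaca, Grin2a and Gm8355 share at least 10% of their 50-base stretches with another gene, and so do Phyhd1, Fdps, Trf, Spp1, Amy1, Pcdhgb1 and Sh3bp1 with a gene model that overlaps them on the same strand. Bax, Ntng2 and Tm7sf2 overlap another gene on the same strand by at least 10% of their exon bases. Tgm2, Pllp, Nos3, Icam1, Txnip, Ncf1, Hmgcs1, Fdft1, Cryab, Csf1r, Hsp90b1, Grin1, Dbp, Nkx6-2 and Scap share at least 10% of their exon bases with a gene on the opposite strand, and the sources used here do not say whether the counting used strand.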

How the data were processed

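RNA-seq was made from the hippocampus of 47 mice in 12 groups, of which 8 libraries (4 control and 4 day 1 young males) were compared here. The authors trimmed the reads, aligned them with STAR to mm10 in Partek Flow and deposited TMM-normalized values in CPM (read counts scaled to library size), and the sources used here give no tool versions. Whole reads were not recovered, since 80.3% to 83.8% of values under 1000 reads lay within 0.05 of a whole number, so no count model was used. The estimated depth was 19116082 to 28143705 reads in genes.

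Genes whose mean reached 5 CPM were fitted in limma 3.58.1 on log2(CPM + 1) with a mean trend, using only the libraries compared, and fold changes on this scale understate the change of low genes. The study's analysis of variance at p below 0.01 set the threshold. The interaction with sex or age was a contrast over 16 libraries. All p-values measure the spread between these mice. On simulated data with 200 changed genes the fit recovered, at an unadjusted p below 0.01, 89% of genes changed by 0.5, 97.5% by 1 and 100% by 2 on the log2 scale. For the interaction with sex it recovered 67%, 94.5% and 99%. The simulation gave the females the spread of the young males, though the median SE was 0.126 in young females and 0.102 in young males. It also drew every gene independently, without differences that many genes of a library share, such as the choroid plexus content. The recovery in the real libraries can therefore differ from these values.

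Members, gene lists and tests were chosen with earlier results of these data known. Named genes were the 12 largest increases and decreases (adjusted p below 0.05, no overlap, mean of at least 10 CPM), list members, and the 5 largest interactions in each direction, and any other gene is said to be chosen after its values were seen. Promoter windows came from RefSeq (GRCm38.p6) and exon overlaps from GENCODE vM21. Alternatives changed the pseudocount, filter, test, scaling, GC correction, replicate block and libraries. A fit with a choroid plexus covariate and a fit without the 3 libraries high in choroid plexus genes were added after seeing the data.
A few genes are not reported here.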

Additional observations from a re-analysis of the deposited data

Results flagged for a closer look

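In 32 of 456 sets of 4 libraries (7.02%), formed by 228 genes in controls and in day 1 mice, the highest or lowest library stood apart by more of its group's range than the critical value of Dixon's test allows, where chance gives about 1 in 20. Septic mouse 1 was the library standing apart in 14 of the 32. It was the highest of its group for Lcn2 (98.1 CPM, others 23.6 to 25.7), Saa3 (43.5 CPM), Apod (553 CPM), C4b (116 CPM), Cp (37.4 CPM), Tgm2 (56.0 CPM), Ly6a (60.7 CPM), Nos3 (21.6 CPM), Klf2 (9.7 CPM), Il6 (0.113 CPM), Mvk (15.4 CPM) and Tm7sf2 (45.6 CPM), and the lowest for Idi1 (11.02 CPM) and Ncan (131 CPM). Septic mouse 3 stood apart for Aqp4 (63.9 CPM), Hif3a (14.6 CPM) and Xdh (9.22 CPM), and septic mouse 4 for Fdps (20.4 CPM) and Nrxn2 (204 CPM).

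Among controls, mouse 1 stood apart for Apln (12.5 CPM), Gal3st1 (11 CPM), Socs3 (1.51 CPM) and Ttr (4548 CPM), mouse 2 for Lcn2 (0.833 CPM), Rorb (12.2 CPM), Scap (94.0 CPM) and Selp (0.0416 CPM), and mouse 4 for Arhgef3 (80.02 CPM), C4b (55.9 CPM), Gjb6 (42.3 CPM), Nfkbia (18.1 CPM) and Pdgfra (38.9 CPM).

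The effect of sepsis on day 1 differed between young males and young females at an unadjusted p below 0.01 (limma interaction) by 0.93 for Gm8355, 0.73 for Dcn, 0.68 for Hsp90b1, 0.66 for Pdia6 and 0.63 for Gabra2 on the log2 scale. It differed in the other direction by -0.78 for Dbp, -0.76 for Sh3bp1, -0.66 for Plxdc1, -0.63 for Mthfd1l and -0.60 for Kirrel2. Between young and old males the differences were 1.91 for Lcn2, 0.91 for C4b, 0.81 for Tgm2, 0.80 for Lcp1, 0.59 for Pecam1, -0.80 for P2ry12, -0.68 for Kirrel2, -0.56 for Egr1, -0.54 for Pcdhgb1 and -0.53 for Foxo6. None of these 20 differences had an adjusted p below 0.05. With all libraries the genes called were fewer than the threshold gives where no gene differs. With some single libraries left out they were more.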

How the results depend on the processing

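The 933 calls of young males on day 1, among 11720 genes, became 354 of 3637 genes with a filter at a mean of 50 CPM. With no filter there were 1383 of 27693 genes, and after a correction for GC content 811 of 11600. With a library left out there were 573 to 1039, lowest without control 2. A choroid plexus covariate gave 861 calls, and leaving out the 3 libraries high in choroid plexus genes 625. Of the 169 genes named here that were called, none was called with the opposite sign under any alternative, but calls were lost. Of the 169, 46 were no longer called without the 3 libraries high in choroid plexus genes. With an unmoderated F test 34 were no longer called, and 30 when control 2 was left out. At an adjusted p below 0.05 (limma) the 425 genes of the full set became 114 without those 3 libraries. Correlations of same-numbered deviations were 0.416, 0.087, 0.019 and -0.415, so no pairing by replicate number was seen, and a replicate block gave 784 calls. This check cannot exclude a pairing, since deviations within a group depend on each other. Control 1 correlated at 0.416 and 0.594 with septic mice 1 and 4, the other libraries high in choroid plexus genes.

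The 59 interactions with sex became 181 of 27973 genes with no filter and 17 of 3649 genes at a mean of 50 CPM. With an unmoderated F test there were 101, and with all 12 groups in 1 fit 114. Scaling by the median of ratios gave 93, and leaving a library out 28 to 265. The 64 interactions with age became 209 of 27977 genes with no filter and 13 of 3617 genes at a mean of 50 CPM. With all 12 groups in 1 fit there were 22, and with a library left out 39 to 142. The lowest and highest counts came without septic young male 3 and young female control 2 for sex, and without young male controls 2 and 3 for age. Why the counts moved was not tested beyond the number of genes and libraries in each fit. At 1 read a value changes by 0.0307 to 0.0416 CPM, so values near 0 rest on a few reads.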
